A study of Mus musculus with 18 samples.

Results

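The transcript response of recently primed CD8+ T cells to interleukin-21 (IL-21) was measured on 6 of the 18 arrays of a study of common gamma chain cytokines, 3 cultured with IL-21 and 3 cultured in media alone. The arrays were taken by their sample titles, and all 18194 genes with a probe set of their own were described. In both groups the cells were male OT-I Thy1.1 T cell receptor transgenic CD8+ T cells, which recognise the ovalbumin peptide SIINFEKL. Naive cells purified from spleen were stimulated for 48 hours with irradiated, peptide-pulsed splenocytes of C57BL/6 mice, and viable cells were recovered over Ficoll. The IL-21 group was then cultured for 24 hours with recombinant murine IL-21 at 100 ng/ml, and the media control group for the same time with no added cytokine. The other 12 arrays hold cells cultured with IL-2, IL-4, IL-7 or IL-15 at the same dose, 3 arrays for each. The 3 arrays of a group are described as biological replicates. RNA extraction differed by replicate number, with RNeasy used for numbers 1 and 2 and TRIzol with Direct-zol used for number 3, in every group alike. The ages of the mice are not given in the sources used here, and a culture system of 1 receptor specificity is what the arrays describe.

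IL-21 is made mainly by follicular helper and other CD4+ T cells and acts through a receptor of the IL-21 receptor chain and the common gamma chain. The receptor works through the kinases JAK1 and JAK3 and is known above all for activating STAT3, with weaker signals through STAT5. In CD8+ T cells the cytokine is known for supporting cytotoxicity, and in B cells for driving plasma cell formation.

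Each value below is a log2 level, so that a difference of 1 is a doubling, and values of a group are given in the order of replicates 1, 2 and 3. Before the comparison the 18 columns were quantile normalized, because 3 arrays, all of replicate 3, lay lower as a whole (IL-2, IL-15 and media control), with medians of 4.47 to 4.52 against 5.76 to 5.84 on the other 15. A gene rose or fell where the difference of the group means passed an adjusted p of 0.05 in limma, with the replicate number as a block. Levels of genes from other tissues placed background at 7.69, and where a group mean lies under it the size of a change is inexact. This cutoff is pulled up by 2 of those genes, Tg and Mbp, which lay above it. The rest had group means of at most 6.71, so a level a little under 7.69 may still be signal. As a sign of RNA quality, the 3′ actin probe set exceeded the 5′ one by 0.19, 0.19 and 0.39 in the deposited values with IL-21, and by 0.26, 0.27 and 0.61 in media control. Over 13 T cell identity genes, all with a group mean above background, the mean level was 11.82 to 12.04 with IL-21 and 12.03 to 12.28 in media control. Of these 13 genes 5 fell and 1 rose, where 10.5% of all genes fell and 10.6% rose, and their median change was -0.25. Cd8b1, a chain of the CD8 co-receptor, fell (-0.70 ± 0.12), as did Cd3e (-0.40 ± 0.13). The B cell gene Cd79a, the NK cell gene Ncr1, the myeloid integrin Itgam and Cd4 had group means under background in both groups. Other markers were above it: 1 of 13 for B cells (Ighm, at group means of 12.19 with IL-21 and 12.63 in media control), 3 of 15 for myeloid cells, 5 of 14 for dendritic cells and 5 of 10 for NK cells. Markers of cells that the stimulator spleen could have left behind were nonetheless not level between the groups. Of 15 myeloid markers 5 fell and 1, Itgam, rose, of 14 dendritic cell markers 4 fell, and of 13 B cell markers 4 fell. Of 10 NK cell markers 3 rose (Cd244a, Klre1 and Nkg7) and 2 fell (Xcl1 and Eomes). Each of these also stands on another list here, of T cell or effector genes, so they do not mark NK cells alone. Itgam did not pass without IL-21 replicate 2, IL-21 replicate 3 or media control replicate 3 (adjusted p = 0.13, 0.10 and 0.16 in limma). The mean over the myeloid markers ran from 5.71 to 6.54 on the IL-21 arrays and from 5.98 to 7.23 on the media control arrays. Lyz2, the lysozyme of macrophages and granulocytes, stood at 7.23, 9.02 and 6.69 with IL-21, against 8.81, 11.54 and 7.67 in media control. In these bulk samples fewer cells of a type and less RNA per cell cannot be told apart.

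IL-21 shifted the transcriptome in both directions to a like extent. Of 18194 genes, 1929 rose (10.6%) and 1908 fell (10.5%), and the median change was -0.0052. Counts within gene lists are to be read against these shares. At least 4-fold changes were less evenly split, with 76 rises and 30 falls, and 25 rises and 5 falls reached 8-fold. Among the genes called, 1413 of the rises and 1501 of the falls had a group mean above background. All 3 IL-21 arrays lay above all 3 media control arrays for 1297 of the rises, and below them for 1359 of the falls. Over all 18194 genes, called or not, 1840 lay wholly above and 1933 wholly below. Groups that do not overlap, as given for single genes below, are thus common. The balance rests on the normalization. With the deposited values used as they are, the median change of all genes was 0.43, and 505 genes rose and 50 fell. That setting favours rises, so list members below that also rise under it gain little support from it. With the 3 low arrays left out and the other 15 normalized among themselves, an alternative chosen after the data were seen, 1892 rose and 1973 fell. Without the replicate 1 arrays of all groups 708 rose and 723 fell, without those of replicate 2 the counts were 883 and 832, and without the replicate block 616 and 598.

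**Figure D1:**
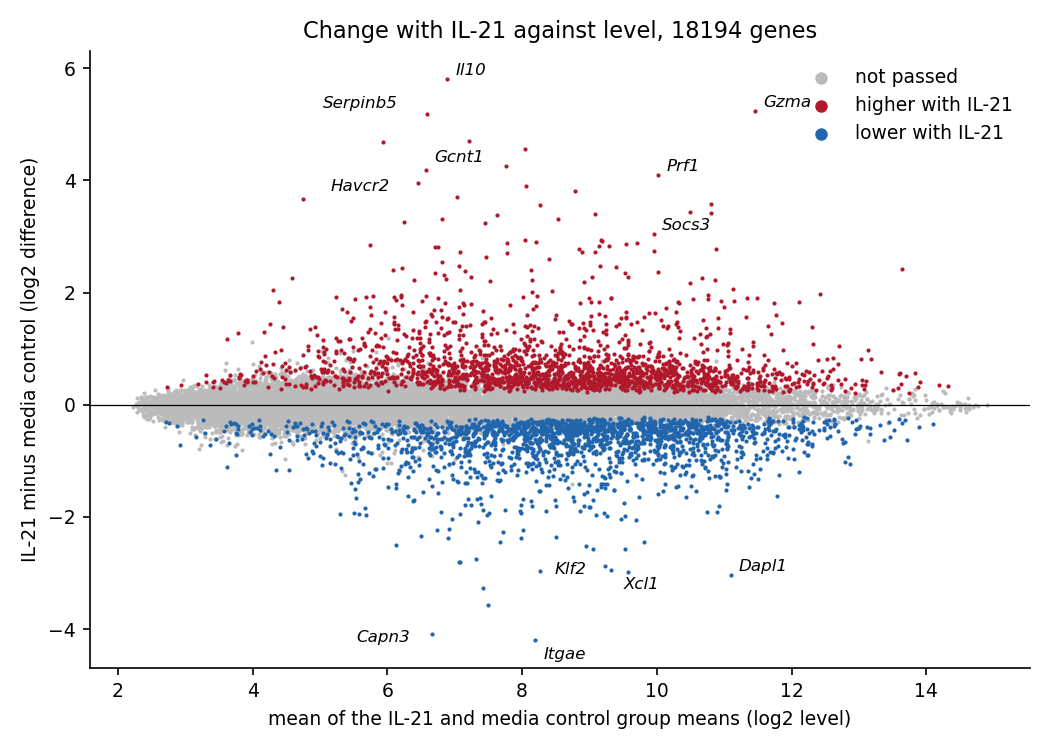
Change with IL-21 for each of 18194 genes. The x axis is the average of the IL-21 and media control group means (log2 level) and the y axis is IL-21 minus media control (log2 difference), with red points for the 1929 genes that rose, blue points for the 1908 that fell and grey points for the rest. The named rises reach 5.81 (Il10) and the named falls reach -4.19 (Itgae).

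The largest rise was in Il10, the gene of an anti-inflammatory cytokine. Il10 stood at 9.98, 10.56 and 8.83 with IL-21, against 3.83, 3.57 and 4.55 in media control. The 2 groups were separated by more than 4 log2 units and all media control arrays lay under background. The difference was 5.81 ± 0.37 (SE, n = 3 each), or 56.2-fold, with an adjusted p of 1.2e-07 in limma. Gzma and Prf1, genes of effector cell granules, are described with the cytotoxic genes. Serpinb5, which encodes the serpin maspin, stood at 9.38, 9.22 and 8.95 with IL-21, against 4.46, 4.49 and 3.05 in media control. Its rise was 5.18 ± 0.23, and again only the IL-21 arrays exceeded background. Moxd1, a gene of a monooxygenase-like protein, stood at 9.46, 9.91 and 9.32 with IL-21, against 4.80, 4.93 and 4.84 in media control, and its 3 media control values lay within 0.13 of each other. It rose by 4.71 ± 0.13 (adjusted p = 3.7e-11 in limma).

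The other rises of this size joined genes of unlike function. B4galnt4, a glycosyltransferase gene, rose by 4.56 ± 0.22, P2ry14, the receptor of UDP-glucose, by 4.26 ± 0.22, and Neb, which encodes the giant muscle protein nebulin, by 4.69 ± 0.25. Gcnt1, whose enzyme builds the core 2 O-glycans that carry selectin ligands, stood at 8.84, 8.82 and 8.32 with IL-21, against 4.83, 4.46 and 4.15 in media control. Havcr2, the inhibitory receptor TIM-3, stood at 8.63, 8.62 and 8.04 with IL-21, against 4.82, 4.33 and 4.27 in media control. In both genes every IL-21 array lay above background and every media control array below it, with differences of 4.18 ± 0.17 and 3.96 ± 0.18.

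The largest fall was in Itgae, the alpha E integrin chain (CD103) that binds E-cadherin. Itgae stood at 6.24, 6.15 and 5.92 with IL-21, against 9.66, 11.33 and 9.89 in media control. The IL-21 arrays were all under background and close together, while the media control arrays spread over 1.67. The difference was -4.19 ± 0.53 (adjusted p = 5.8e-05 in limma), an 18.2-fold difference. Capn3, a calpain protease gene best known in muscle, stood at 4.96, 4.37 and 4.54 with IL-21, against 8.83, 9.23 and 8.03 in media control, and Gucy1a1, a subunit of soluble guanylate cyclase, at 5.81, 5.31 and 6.01 with IL-21, against 8.95, 9.10 and 9.80 in media control. Both had groups that did not overlap and fell, with differences of -4.08 ± 0.27 and -3.57 ± 0.24. The amino acid transporter gene Slc6a19 fell (-3.27 ± 0.27) and the dystrophin-associated syntrophin gene Sntb1 (-2.80 ± 0.31). Tbc1d4, a regulator of glucose transporter traffic, fell (-2.76 ± 0.31), and Hemgn, a nuclear protein of blood cell precursors, (-2.81 ± 0.26).

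**Figure D2:**
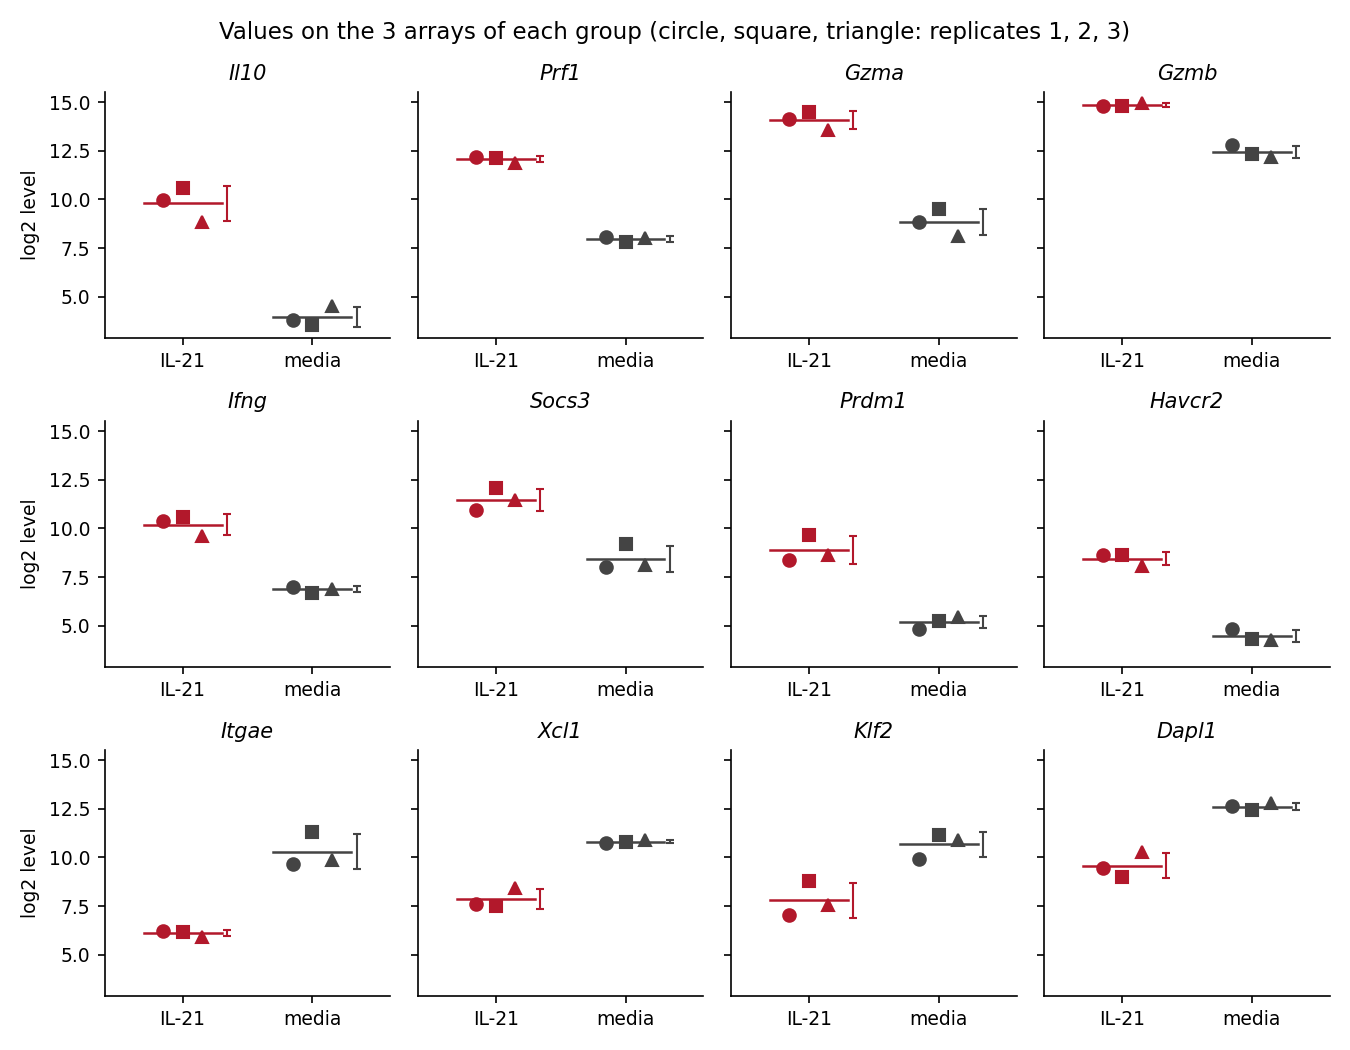
Log2 levels of 12 genes on the single arrays. Each panel has the IL-21 arrays (red) left of the media control arrays (grey), with circles, squares and triangles for replicates 1, 2 and 3, a line at the group mean and a bar of 1 SD. In all 12 panels the groups do not overlap: the first 8 genes are higher with IL-21 and Itgae, Xcl1, Klf2 and Dapl1 are lower.

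Genes of the IL-21 receptor, JAK kinases and STAT factors changed by at most 1.33 on the probe sets used. Of 11 measured members, a list not limited to what the IL-21 receptor works through, 4 rose and 4 fell. The common gamma chain was not among them. Il21r, the ligand-binding chain, stood at 10.10, 10.02 and 9.60 with IL-21, against 8.30, 8.66 and 8.77 in media control, and every IL-21 array lay above every media control array. Its rise was 1.33 ± 0.17 (adjusted p = 5.5e-05 in limma). Stat3 stood at 11.50, 11.51 and 11.31 with IL-21, against 10.86, 10.86 and 11.07 in media control, a smaller rise of 0.51 ± 0.12 with no overlap. It did not pass without the replicate 1 arrays or without the replicate 2 arrays (adjusted p = 0.18 and 0.13 in limma). Jak3, the kinase bound to the common gamma chain, rose by 0.79 ± 0.11, and Stat5a by 0.88 ± 0.15. Within the IL-21 and media control groups Jak3 spread over 1.44 and 1.5, and Stat5a over 2.43 and 1.55. Without the replicate block neither passed (adjusted p = 0.61 and 0.64 in limma). Another probe set of Stat5a rose by 1.65 (adjusted p = 1.04e-06 in limma). Stat4, the factor downstream of IL-12, fell (-0.63 ± 0.15), and the kinases Jak2, Jak1 and Tyk2 (-0.61 ± 0.13), -0.53 ± 0.12 and -0.40 ± 0.12. Without the replicate 1 arrays Stat4, Jak2 and Jak1 did not pass (adjusted p = 0.13, 0.083 and 0.14 in limma). The fall of Tyk2 did not pass without any 1 of the IL-21 arrays or without media control replicate 2 or 3 (adjusted p = 0.052 to 0.15 in limma). Stat5b differed by 0.04, Stat6 by -0.21 and Stat2 by -0.14, none of which passed.

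Among 17 inhibitors of cytokine signalling, 5 rose and 3 fell, and a single member stood out in size. Socs3, which is induced by STAT3 and blocks receptors of the gp130 type, stood at 10.94, 12.07 and 11.44 with IL-21, against 7.999, 9.20 and 8.12 in media control. Replicate 2 was highest in both groups, and the difference within each replicate number stayed close to 3. The rise was 3.04 ± 0.14 (adjusted p = 5e-09 in limma), measured by a probe set whose suffix marks it as open to cross-hybridisation. A Socs3 probe set without that suffix rose by 2.69 (adjusted p = 6.4e-08 in limma). Cish, a classical STAT5 target, stood at 10.07, 10.13 and 9.62 with IL-21, against 8.28, 8.32 and 7.68 in media control, a rise of 1.84 ± 0.27. The tyrosine phosphatase Ptpn2 rose by 0.59 ± 0.09. Sh2b3 (LNK), an adaptor that restrains JAK2, fell (-1.12 ± 0.10). Socs2 and Socs1 differed by 0.89 ± 0.38 and 0.37 ± 0.16 and did not pass. Another probe set of Socs2 rose by 1.37 (adjusted p = 0.036 in limma).

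Of 25 measured STAT3 targets, 20 rose and 1 fell, with a median change of 1.42. The median within replicates 1, 2 and 3 was 1.33, 1.54 and 1.74, so that the RNeasy pairs and the TRIzol pair gave it the same sign. With the deposited values used as they are, 15 of the 25 rose. Prdm1, which encodes BLIMP-1, a repressor that drives terminal effector differentiation, stood at 8.36, 9.68 and 8.63 with IL-21, against 4.84, 5.24 and 5.46 in media control. It was above background only with IL-21 and rose by 3.70 ± 0.23. Cebpd, a C/EBP factor gene, rose by 3.26 ± 0.24, and Nfil3, a bZIP factor of lymphocyte differentiation, by 2.73 ± 0.23. Bcl3, an atypical inhibitor of NF-kappaB, rose by 2.27 ± 0.13, and the kinase gene Pim1 by 2.16 ± 0.24. Bcl6, the repressor that acts opposite BLIMP-1 in follicular helper cells, stood at 7.96, 8.59 and 8.54 with IL-21, against 7.30, 7.80 and 7.02 in media control. Its groups did not overlap, yet the rise of 0.99 ± 0.29 was modest (adjusted p = 0.024 in limma), and it did not pass without IL-21 replicate 3, media control replicate 2 or media control replicate 3 (adjusted p = 0.12, 0.061 and 0.11). Il21 itself stood at 6.24, 5.53 and 6.84 with IL-21, against 4.12, 4.10 and 4.64 in media control, a rise of 1.92 ± 0.21 that took place wholly under background. STAT5 targets, a list that shares Gzmb, Pim1, Osm and Il4ra with the STAT3 list, had 14 of 22 members higher and 3 lower, with a median of 1.06. Il2ra, the high-affinity chain of the IL-2 receptor, stood at 11.48, 11.44 and 11.07 with IL-21, against 8.69, 8.26 and 8.82 in media control.

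The palindrome TTCNNNGAA, to which STAT dimers are known to bind, was looked for in the 250 bases before each RefSeq transcription start, a search chosen after the values were seen. It occurred in 7.02% of 32851 promoters, and 8.13% of 27025 genes had a promoter with it. Of the 20 STAT3 targets that rose, 15 had a promoter in the RefSeq table, and Socs3 and Bcl6 held the palindrome. Moxd1, a large rise on no list that was picked for display after the values were seen, held it too. Other unlisted rises were not counted, and whether the palindrome bears on any of these rises was not tested. The 80 bases around it are shown 5′ to 3′ on the coding strand with the palindrome in capitals, in build GRCm38.p6, at chr11:117969477-117969556 (minus strand) for Socs3, chr16:23988927-23989006 (minus strand) for Bcl6 and chr10:24223331-24223410 (plus strand) for Moxd1.
Socs3: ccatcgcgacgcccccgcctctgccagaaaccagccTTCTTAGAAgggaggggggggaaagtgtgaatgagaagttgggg
Bcl6: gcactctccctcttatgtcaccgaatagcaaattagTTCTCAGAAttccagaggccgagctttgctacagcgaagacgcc
Moxd1: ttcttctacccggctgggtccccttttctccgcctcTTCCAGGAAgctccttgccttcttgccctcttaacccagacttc

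More cytotoxic effector genes rose than fell, led by granzymes and perforin. Of 24 measured members 13 rose and 3 fell, with a median of 0.80. With the deposited values used as they are, a setting that favours rises, 12 of the 13 also rose. Prf1, the pore-forming protein perforin, stood at 12.19, 12.13 and 11.89 with IL-21, against 8.08, 7.80 and 8.04 in media control. The spread within either group was 0.30 at most, against a difference of 4.10 ± 0.14, or 17.1-fold (adjusted p = 4.6e-10 in limma). Another probe set of Prf1, at a mean of 5.86, did not pass (0.22, adjusted p = 0.24 in limma). Gzma, a granule protease with trypsin-like activity, stood at 14.15, 14.50 and 13.58 with IL-21, against 8.86, 9.51 and 8.13 in media control. It was well above background in both groups and rose 37.8-fold, by 5.24 ± 0.24. Gzmb, the caspase-activating granzyme, stood at 14.80, 14.80 and 14.94 with IL-21, against 12.78, 12.32 and 12.19 in media control, near the top of the range of these arrays. Gzmk rose by 2.41 ± 0.25, and Gzmd and Gzme, of a granzyme cluster found in mice, by 3.67 ± 0.38 and 2.04 ± 0.27 with all values but 1 under background. Fasl, the death ligand, stood at 8.38, 8.92 and 8.42 with IL-21, against 6.96, 7.20 and 8.05 in media control, and rose by 1.17 ± 0.21. Granzyme and natural killer receptor genes lie in families of near-identical copies, and their probe sets may share signal.

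Some serpins, a family with several inhibitors of granule proteases, rose. Of 21 serpins and cathepsins 9 rose and 1 fell. Serpinb1a, an inhibitor of neutrophil proteases, lay between 9.68 and 10.36 with IL-21, against 4.97 to 6.97 in media control. Serpinb9, the inhibitor of granzyme B, stood at 11.29, 10.56 and 10.55 with IL-21, against 9.42, 9.41 and 9.36 in media control. Neither gene had overlapping groups, and the rises were 3.90 ± 0.33 and 1.40 ± 0.15. Serpinf1 rose by 2.81 ± 0.21, whereas another probe set of it, at a mean of 6.65, did not pass (0.52, adjusted p = 0.18 in limma). The member that fell, Ctss, encodes cathepsin S, a protease of antigen presenting cells that was also on the myeloid marker list.

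Of 28 secreted cytokine genes 8 rose and 4 fell. Ifng, the main type 1 cytokine of CD8+ T cells, stood at 10.37, 10.60 and 9.59 with IL-21, against 7.01, 6.70 and 6.91 in media control. It rose by 3.31 ± 0.35, or 9.93-fold. Il18, an inflammasome-processed cytokine, stood at 10.73, 11.30 and 10.45 with IL-21, against 8.998, 9.71 and 9.21 in media control, a rise of 1.52 ± 0.28. Lta, which encodes lymphotoxin alpha, stood at 6.09, 6.23 and 6.45 with IL-21, against 7.71, 7.87 and 8.52 in media control, and fell (-1.78 ± 0.13). Ebi3, a shared subunit of IL-27 and IL-35, stood at 6.62, 6.61 and 5.82 with IL-21, against 7.92, 8.18 and 8.01 in media control, a difference of -1.68 ± 0.15. Neither Lta nor Ebi3 had overlapping groups, with narrower gaps than that of Ifng.

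Of 23 chemokine genes 3 rose and 3 fell, shares near those of all genes, and 17 did not pass. Ccl4, an inflammatory chemokine that draws leukocytes, stood at 12.17, 12.26 and 12.22 with IL-21, against 7.85, 8.72 and 9.76 in media control. The IL-21 arrays were within 0.09 of each other and the media control arrays spread over 1.91. Ccl4 rose by 3.44 ± 0.34, and Ccl3, a related inflammatory chemokine, by 2.86 ± 0.41. Xcl1, which attracts cross-presenting dendritic cells, stood at 7.63, 7.49 and 8.43 with IL-21, against 10.74, 10.77 and 10.90 in media control, a difference of -2.95 ± 0.28. Of 23 receptors for chemokines and related lipids 3 rose and 8 fell. Cxcr6, a receptor of tissue-resident T cells, rose by 1.56 ± 0.31. Cxcr5, the B cell follicle receptor, stood at 6.72, 6.10 and 5.51 with IL-21, against 7.69, 8.37 and 8.11 in media control, and fell (-1.95 ± 0.27). Ccr7, which guides T cells into lymph nodes, fell (-1.31 ± 0.12), S1pr1, which lets them leave, (-1.89 ± 0.36), and Cxcr3, which leads effector cells to inflamed tissue, (-1.24 ± 0.23).

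Receptors shared with NK cells were evenly split. Of 24 members 5 rose and 5 fell, and their median change was -0.03. Cd244a (2B4) stood at 6.63, 6.49 and 5.44 with IL-21, against 4.23, 4.19 and 5.01 in media control, all under background, and rose by 1.70 ± 0.26. Slamf7 (CRACC) rose by 1.6 ± 0.24 and Klrc1 (NKG2A) by 1.33 ± 0.27. Slamf6, a receptor of the same family as Slamf7, stood at 8.28, 8.84 and 8.80 with IL-21, against 10.17, 10.51 and 10.46 in media control, and fell (-1.74 ± 0.27). The 3 values of each group lay well apart from those of the other. Among 24 inhibitory receptors and ligands 9 rose and 6 fell. After Havcr2 the next was Entpd1, the ectonucleotidase CD39, at 8.95, 9.09 and 6.99 with IL-21, against 5.84, 6.28 and 5.74 in media control. Replicate 3 of IL-21 was about 2 units lower than the others yet still above all media control arrays, and the rise was 2.39 ± 0.27. Pdcd1 (PD-1) rose by 0.77 ± 0.18 and Lag3 by 0.88 ± 0.14, both with overlapping groups, and Pdcd1 did not pass without the replicate 1 arrays or without those of replicate 2 (adjusted p = 0.17 and 0.14 in limma). Cd200 fell (-1.28 ± 0.11) and Cd96, a CD155 receptor, (-1.28 ± 0.17).

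Of 22 co-stimulatory receptors 7 rose and 5 fell. Tnfrsf4 (OX40) stood at 11.43, 11.11 and 11.30 with IL-21, against 10.22, 9.66 and 10.16 in media control. Tnfrsf9 (4-1BB) stood at 11.76, 11.63 and 10.71 with IL-21, against 10.28, 10.09 and 10.03 in media control. Both rose with no overlap, by 1.27 ± 0.21 and 1.23 ± 0.19, and Icos and Fas rose by 0.57 ± 0.14 and 0.83 ± 0.18. Icos did not pass without IL-21 replicate 2 (adjusted p = 0.060 in limma). Without all replicate 1 arrays or all replicate 2 arrays neither Icos (adjusted p = 0.12 and 0.17) nor Fas (0.053 and 0.074) passed in limma. Of 13 ligands of this family 3 rose and 7 fell. Tnfsf11, which encodes RANK ligand, stood at 5.88, 5.37 and 5.62 with IL-21, against 7.88, 7.42 and 8.30 in media control, a difference of -2.24 ± 0.17. Tnfsf10 (TRAIL) rose by 1.10 ± 0.15.

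Transcription factors of T cell fate changed in both directions. Of 46 factors tied to effector and memory fate 16 rose and 18 fell. Id2, an inhibitor of E proteins found in effector cells, stood at 12.12, 12.47 and 12.20 with IL-21, against 9.81, 10.22 and 8.45 in media control. Id3, its counterpart in memory precursors, stood at 8.62, 8.10 and 9.06 with IL-21, against 10.52, 11.13 and 11.47 in media control. The 2 genes thus had opposite differences of like size, 2.78 ± 0.24 for Id2 and -2.45 ± 0.23 for Id3. Batf3, an AP-1 family factor, rose by 2.83 ± 0.23. Tbx21, which encodes T-bet, the type 1 master factor, stood at 10.31, 10.76 and 10.36 with IL-21, against 9.40, 10.15 and 9.15 in media control, and rose by 0.91 ± 0.15. Eomes, the related T-box factor of memory cells, stood at 7.66, 6.98 and 7.20 with IL-21, against 8.11, 7.26 and 8.34 in media control, and fell (-0.62 ± 0.16) with overlapping groups. Without IL-21 replicate 3 or media control replicate 3 Eomes did not pass (adjusted p = 0.072 and 0.067 in limma). Gata3, the type 2 master factor, fell (-1.43 ± 0.18). Ikzf2 (Helios), Mxd4, a MYC antagonist, and Tox, a factor of exhausted cells, fell, with differences of -2.57 ± 0.30, -2.99 ± 0.27 and -1.91 ± 0.15.

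Most genes of naive and resting memory T cells fell. Of 32 members 22 fell and 2 rose, with a median of -0.77, and the median within replicates 1, 2 and 3 was -0.63, -0.77 and -0.93. Only 4 of the 22 fell with the deposited values used as they are, under which 1 low media control array enters unscaled. Klf2, the factor that keeps T cells quiescent and switches on S1pr1, stood at 7.03, 8.76 and 7.58 with IL-21, against 9.94, 11.15 and 10.91 in media control. The replicate 2 arrays were highest in both groups, the groups did not overlap, and the difference was -2.87 ± 0.27. Dapl1, a death-associated protein homologue gene, stood at 9.45, 9.02 and 10.27 with IL-21, against 12.62, 12.44 and 12.78 in media control, a difference of -3.03 ± 0.18. Bach2, Lef1 and Il7r, a repressor of effector genes, a WNT pathway factor and the IL-7 receptor chain, fell, with differences of -1.26 ± 0.22, -1.18 ± 0.17 and -0.77 ± 0.20. Il7r did not pass without IL-21 replicate 3 or media control replicate 3 (adjusted p = 0.078 for both, in limma). Igfbp4, a binding protein for insulin-like growth factors that stands on the list as a naive cell gene, went against it, at 10.97, 10.99 and 11.49 with IL-21, against 8.02, 8.30 and 8.45 in media control.

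**Figure D3:**
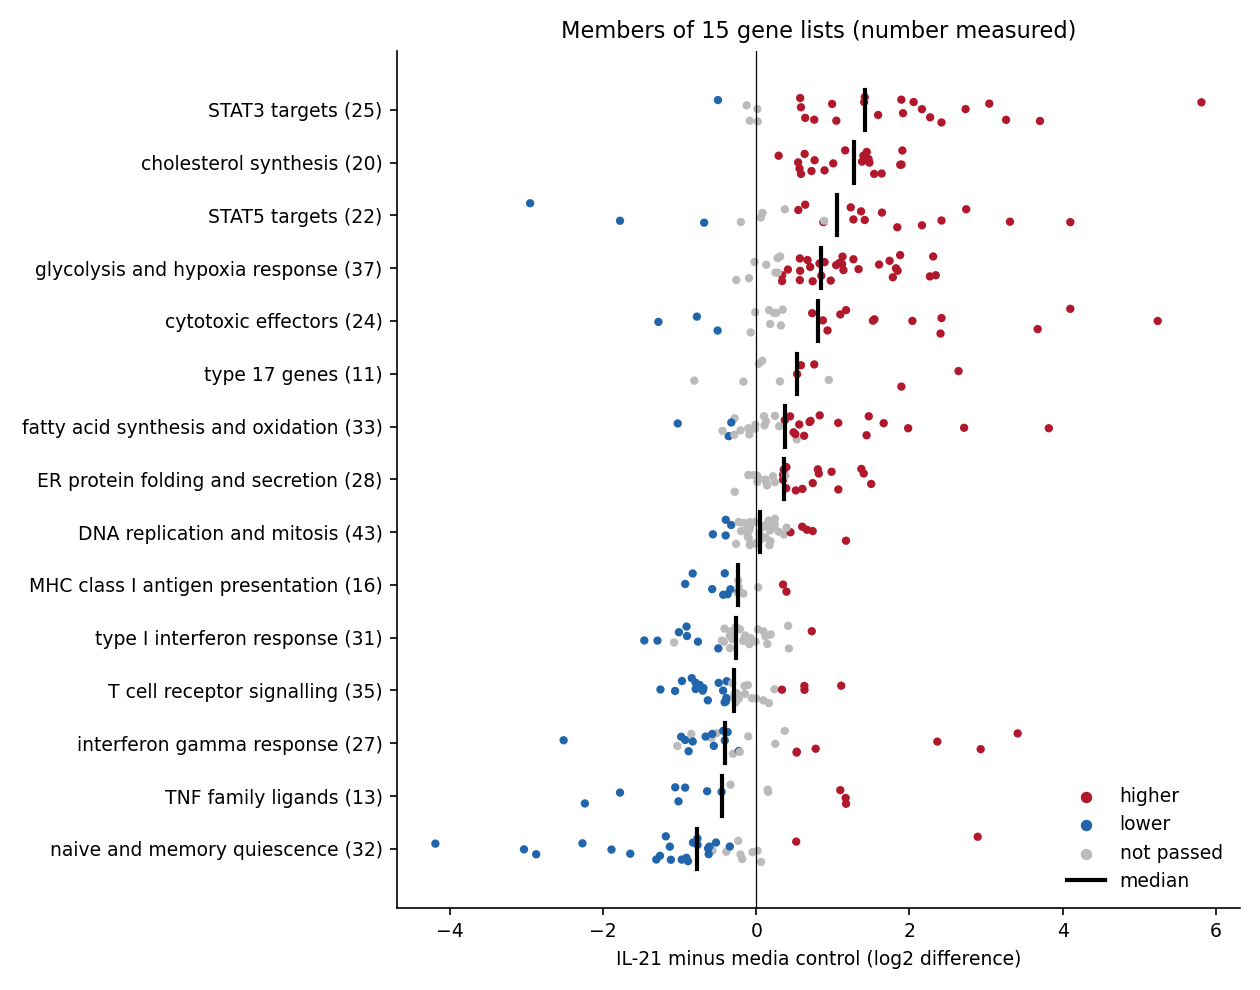
IL-21 minus media control (x axis, log2 difference) for the measured members of 15 gene lists (rows, with the number measured), ordered by median. Each point is a gene, red where it rose, blue where it fell and grey where it did not pass, and black bars are medians. All 20 cholesterol synthesis genes are red and 22 of 32 quiescence genes are blue.

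Sterol synthesis rose throughout. All 20 measured genes of the cholesterol pathway rose, with a median change of 1.27, and medians of 1.09, 1.24 and 1.28 in replicates 1, 2 and 3. With the deposited values used as they are 14 of the 20 rose, and none fell. Lss, lanosterol synthase, stood at 10.34, 10.30 and 10.20 with IL-21, against 8.54, 7.98 and 8.60 in media control. Hmgcs1, which makes HMG-CoA, stood at 12.64, 12.71 and 12.41 with IL-21, against 11.30, 10.98 and 11.09 in media control. The IL-21 arrays exceeded the control arrays by more than 1 unit in both, and the rises were 1.91 ± 0.27 and 1.47 ± 0.17. Fatty acid genes were mixed, with 16 of 33 higher and 3 lower. The desaturases led, and Scd1 stood at 10.41, 10.85 and 10.84 with IL-21, against 7.03, 6.48 and 7.14 in media control. Scd1 rose by 3.82 ± 0.43 and Fads2 by 2.71 ± 0.34. Acadl, an enzyme of mitochondrial fatty acid oxidation, rose by 1.98 ± 0.11, while Cpt1a, which gates fatty acid entry into mitochondria, fell (-1.03 ± 0.12).

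The CCAAT element, the site of the factor NF-Y that works with SREBP at sterol genes, was searched on both strands in the same 250 bases. It was in the window of 16 of the 16 sterol genes with a RefSeq promoter, and in that of 37.5% of all genes with one (33.8% of all promoters). Whether the element bears on the rises of these genes was not tested. The windows of Hmgcs1 at chr13:119690114-119690193 (plus strand) and of Idi1, the isopentenyl-diphosphate isomerase gene, at chr13:8885526-8885605 (plus strand), both in GRCm38.p6, show it in capitals, as ATTGG where it lies on the other strand. Idi1 rose by 1.54 ± 0.20.
Hmgcs1: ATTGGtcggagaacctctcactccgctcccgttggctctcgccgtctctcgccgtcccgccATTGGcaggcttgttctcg
Idi1: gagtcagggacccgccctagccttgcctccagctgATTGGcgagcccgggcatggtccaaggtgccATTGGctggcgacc

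Glycolysis and the hypoxia response followed the same direction, with 29 of 37 genes higher, none lower, and a median of 0.85. The deposited values used as they are gave 20 rises. Hk2, the first enzyme of glycolysis, stood at 10.85, 10.58 and 10.68 with IL-21, against 8.72, 8.54 and 7.83 in media control. Slc2a1, the glucose transporter GLUT1, stood at 12.35, 12.17 and 11.71 with IL-21, against 10.72, 10.45 and 9.52 in media control. Neither gene's groups overlapped, and the rises were 2.34 ± 0.23 and 1.85 ± 0.16. Egln3, an oxygen-sensing prolyl hydroxylase and itself a target of hypoxia-inducible factors, rose by 2.27 ± 0.24, and Bnip3, a mitophagy receptor, by 1.6 ± 0.25. The core of the hypoxia response element, ACGTG, was found on either strand in the window of 18 of the 26 rising members with a promoter and in that of 18.5% of all genes with one (16.6% of all promoters). It is shown in capitals for Hk2 at chr6:82774601-82774680 (minus strand) and for Bnip3 at chr7:138909572-138909651 (minus strand), in GRCm38.p6, and in Bnip3 the matches on the 2 strands overlap. Members that did not rise were not counted, and whether the core bears on the rises was not tested.
Hk2: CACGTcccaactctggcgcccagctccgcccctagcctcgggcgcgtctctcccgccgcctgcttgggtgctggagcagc
Bnip3: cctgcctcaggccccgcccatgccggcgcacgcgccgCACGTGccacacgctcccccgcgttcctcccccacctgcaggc

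Protein supply genes rose in part. Of 28 genes of protein folding in the endoplasmic reticulum 15 rose and none fell. Atf6, a sensor of unfolded protein, stood at 9.34, 9.47 and 9.53 with IL-21, against 8.03, 8.21 and 7.60 in media control, and Xbp1, the factor that expands the secretory system, at 12.50, 12.41 and 12.14 with IL-21, against 11.08, 11.03 and 10.73 in media control. All IL-21 arrays were above all media control arrays, and the rises were 1.5 ± 0.16 and 1.40 ± 0.10. Of 36 amino acid synthesis and ATF4 target genes 16 rose and 3 fell, among them the transporter Slc7a5, at 11.30, 10.32 and 10.50 with IL-21, against 9.71, 8.67 and 8.82 in media control. Slc7a5 rose by 1.64 ± 0.21, with replicate 1 highest in both groups. Asns, asparagine synthetase, rose by 1.3 ± 0.30.

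More interferon-regulated genes fell than rose. Of 27 genes of the interferon gamma response 12 fell and 6 rose, and of 31 of the type I response 7 fell and 1 rose. Iigp1, an immunity-related GTPase, stood at 7.68, 7.97 and 7.44 with IL-21, against 10.04, 10.39 and 10.21 in media control. It fell (-2.52 ± 0.51, adjusted p = 0.0025 in limma) but did not pass without the replicate 1 arrays (adjusted p = 0.073 in limma). Among the rises, the IFITM genes of antiviral membrane proteins changed most, and Gbp7, Irf8 and Gbp3 rose by 0.78 ± 0.19, 0.53 ± 0.15 and 0.53 ± 0.15. Isg20 was the 1 rise of the type I list (0.72 ± 0.16). Ifitm1 stood at 12.33, 12.91 and 12.30 with IL-21, against 10.34, 8.17 and 8.80 in media control, and Ifitm2 and Ifitm3 moved with it. The 3 genes rose by 3.41 ± 0.45, 2.93 ± 0.30 and 2.36 ± 0.39, and the media control arrays were the more variable. Of 16 genes of MHC class I antigen presentation 8 fell and 2 rose, led by the peptide transporter subunit Tap1 at 10.79, 11.01 and 10.55 with IL-21, against 11.50, 11.80 and 11.84 in media control, a difference of -0.93 ± 0.11. All of these falls but that of H2-K1 are also counted in the interferon gamma list, so the 2 lists are not separate results. Both groups of falls are sensitive to scale, with 1 and 0 falls under the deposited values used as they are. The markers of antigen presenting cells given above fell too, including the MHC class II gene Cd74 (-1.80 ± 0.25), and their part in these falls was not tested.

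Proliferation genes stayed near the background rate. Of 43 genes of DNA replication and mitosis 5 rose and 4 fell, with a median of 0.04, and Mki67, the proliferation marker, stood at 12.57, 12.47 and 12.66 with IL-21, against 12.71, 12.51 and 12.82 in media control. Its difference of -0.11 ± 0.10 did not pass. Of 25 G1 cyclins and CDK inhibitors 7 rose and 5 fell. Gadd45g, a growth arrest and stress gene, stood at 10.42, 11.23 and 10.45 with IL-21, against 8.38, 8.03 and 7.21 in media control, and Cdkn1a (p21) at 10.29, 10.26 and 10.21 with IL-21, against 8.73, 9.17 and 8.20 in media control. Both inhibitors rose with no overlap, by 2.83 ± 0.29 and 1.55 ± 0.23. Ccnd3, cyclin D3, rose by 1.37 ± 0.16 on the probe set used, while another probe set of the same gene passed in the other direction, so its direction is uncertain. Of 18 BCL2 family genes 5 rose and 2 fell. Bcl2, the survival gene, stood at 10.49, 10.78 and 10.13 with IL-21, against 10.13, 10.31 and 10.79 in media control, with a difference of 0.06 ± 0.25. The proapoptotic genes Bmf and Bbc3 fell, with differences of -1.32 ± 0.28 and -0.80 ± 0.15, and Pmaip1 (NOXA) rose by 0.52 ± 0.11. Of 23 caspases and death receptors 8 rose and 2 fell.

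**Figure D4:**
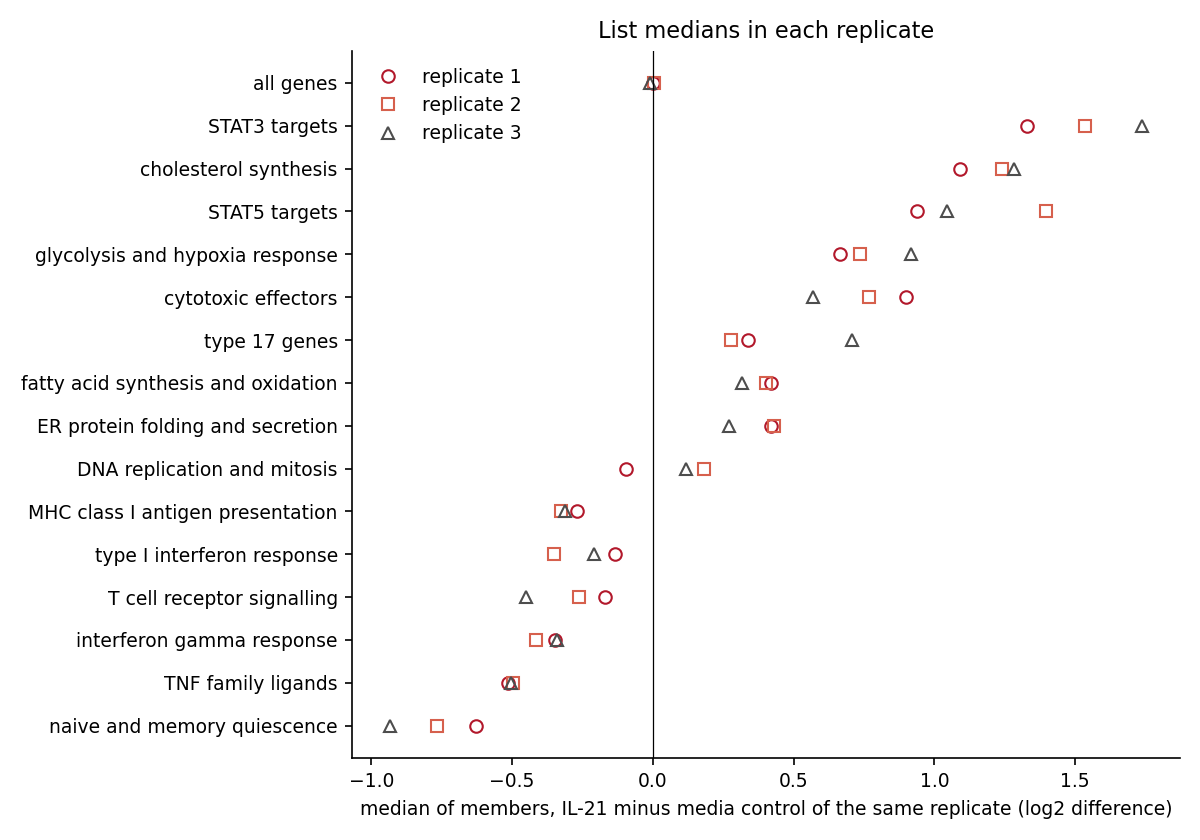
Median IL-21 minus media control difference (x axis, log2) of 15 gene lists and of all genes (rows), computed within replicate 1 (circles), replicate 2 (squares) and replicate 3 (triangles). RNeasy was used for circles and squares, and TRIzol with Direct-zol for triangles. The 3 symbols lie on the same side of 0 for each list but DNA replication and mitosis, and all genes lie close to 0.

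The same IL-21 arrays were set against the 4 other cytokines, in the same fit over all 18 arrays. IL-21 gave a higher level than each of IL-2, IL-4, IL-7 and IL-15 for 417 genes (2.29% of 18194) and a lower level than each for 157 (0.863%). Of the 417 genes, 363 were also higher than media control, and of the 157, 126 were also lower. Without the replicate 1 arrays of all groups the 2 counts were 136 and 31, and without those of replicate 2 they were 177 and 46. Il10 averaged 9.79 with IL-21, against 4.70, 4.23, 3.70 and 3.99 with IL-2, IL-4, IL-7 and IL-15, and the smallest of the 4 differences was 5.10. Serpinb5 and Moxd1 had smallest differences of 4.77 and 4.60, and Serpinb1a, Crispld2, a secreted LCCL domain protein gene, and B4galnt4 of 4.08, 3.61 and 3.58. Ifitm1, Ccl4, AA467197 and Gzmd completed the 10 with the widest margins, at 3.38, 3.26, 2.90 and 2.79. Prf1 was higher with IL-21 than with each other cytokine, by 2.64, 3.54, 4.0 and 4.28, as was Socs3, by 2.84, 1.93, 2.48 and 2.94. In this class were 10 of the 25 STAT3 targets and 8 of the 24 cytotoxic effectors.

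Margins were smaller for genes lower with IL-21 than with each other cytokine. Without IL-21 replicate 2 their number was 91. Hemgn averaged 5.65 with IL-21, against 9.10, 8.36, 9.04 and 9.20 with IL-2, IL-4, IL-7 and IL-15, with a smallest difference of -2.71. Tnfsf11 and Egr3, an early response factor downstream of the T cell receptor, had smallest differences of -2.41 and -1.75. A second Egr3 probe set did not pass against media control (-0.15, adjusted p = 0.33 in limma), so Egr3 rests on the probe set used. Capn3 and Cd83, an activation marker, had -1.67 and -1.6. The 4 contrasts also give Inpp4b, an inositol phosphatase, Tmem154, Ebi3, Tspan32 and Gucy1a1 among the 10 widest. In this class were 4 of the 13 TNF family ligands, Tnfsf11 and Lta among them.

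Other large responses to IL-21 did not pass against every other cytokine. Gzma was 5.18, 5.74 and 4.91 higher with IL-21 than with IL-2, IL-7 and IL-15, whereas its difference from IL-4 was 0.37 (adjusted p = 0.42 in limma). Gzmb differed from IL-2, IL-4 and IL-7 by 0.06, 0.23 and 0.48, none of which passed, and was 1.45 higher than with IL-15. Its levels lay near the top of the range of the arrays with IL-21, IL-2, IL-4 and IL-7, which limits what these differences can show. Ifng differed from IL-2 by 0.22 and was 1.68, 2.73 and 2.87 higher than with IL-4, IL-7 and IL-15. None of the 20 sterol genes was in the IL-21 class: Hmgcs1 differed from IL-2, IL-4 and IL-7 by 0.06, 0.30 and 0.38, and only the difference of 0.90 from IL-15 passed. For Hk2 too, the difference of 1.21 from IL-15 was the only 1 of the 4 that passed. Bcl2 was lower with IL-21 than with IL-2, IL-4 and IL-7, with differences of -1.66, -1.89 and -1.72. Cish was lower than with the same 3 cytokines, with differences of -1.46, -2.04 and -1.08, and 1.33 higher than with IL-15.

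**Figure D5:**
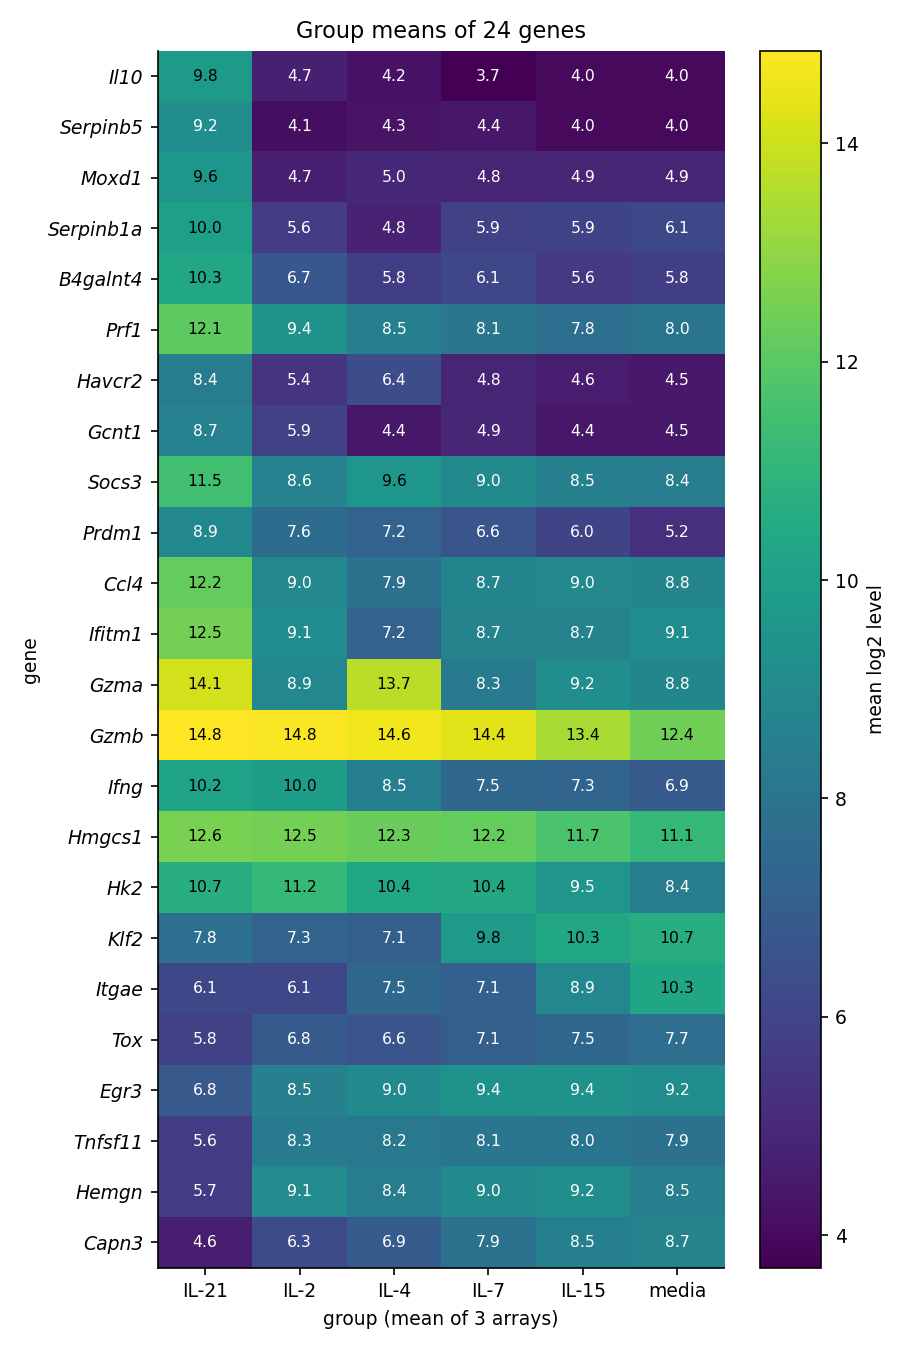
Mean log2 level of 24 genes (rows) in the 6 groups (columns, 3 arrays each), coloured by level and printed in each cell. The first 12 genes are highest in the IL-21 column, Gzma is also high with IL-4, and the last 5 genes are lowest in the IL-21 column.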

How the data were processed

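RNA of 18 samples was hybridised to Affymetrix Mouse 430 2.0 arrays. The authors made the deposited log2 values with RMA in Affymetrix Expression Console (background correction, quantile normalization and summary per probe set). Why 3 columns lie on a lower scale is not given in the sources used here, and unprocessed array files were not analysed here. Of 45101 probe sets, 34958 have 1 gene symbol in the platform annotation, 932 have several and 9211 have none or are not listed. The probe set with the highest mean was kept for each of 18194 genes. Columns were quantile normalized again and fitted with limma 3.58.1 (R 4.3.3) over all 18 arrays, with 6 group means, the replicate number as a fixed block and 10 residual degrees of freedom. Tests were two-sided moderated tests with Benjamini-Hochberg adjustment over all genes of a contrast. A gene differed from the 4 other cytokines where all 4 contrasts passed in the same direction.

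Residuals of same-numbered arrays correlated (45 pairs, lowest 0.44, median 0.60), whereas the highest of 90 pairs with different numbers was 0.38, so the numbers pair the samples. Precision is limited by the number of arrays. Background (7.69) was set at the 95th percentile of mean levels over 35 genes that belong to other tissues. Of these, Tg (11.54 with IL-21 and 10.58 in media control) and Mbp (9.89 and 11.16) lay above it and raise it. Tg rose and Mbp fell. The members, gene lists and the rule for named genes were chosen with earlier results of these data known. The rule takes the 12 largest rises and falls without overlap and above background, up to 6 members that passed per list, the receptor, JAK and STAT genes, marker genes, the 10 widest margins to other cytokines in each direction, and a few fixed genes. Other genes named here (Id3, Tox, Bach2, Lef1, Il7r, Lag3, Pdcd1, Cpt1a, Hmgcs1, Gbp7, Irf8, Gbp3 and Isg20) were chosen after their values were seen. So were Osm, Il4ra, H2-K1, Foxp3, Ctla4, Il17a, Ccr6 and Ccl20, given by name only. Figures were drawn with matplotlib 3.10.9 in Python 3.11.15. The fit was tested on simulated data. Promoters and gene names are those of RefSeq (GRCm38.p6). Alternatives varied the normalization, block, arrays, probe set choice, filter and variance model.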

Additional observations from a re-analysis of the deposited data

How the results depend on the processing

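Counts of genes changed by over 1.5 times with the scale of the arrays, the pairing of the replicate numbers and the arrays used. With the deposited values used as they are, 505 genes rose and 50 fell against media control, and 71 were higher and 4 lower than with each of the 4 other cytokines. Cd4, Mki67, Stat2, Stat6 and Tyk2 then turned positive, at 0.16, 0.29, 0.30, 0.30 and 0.088. Without the replicate block 616 rose and 598 fell, all of them among the 1929 and 1908 of the fit with the block, and 152 and 24 differed from each other cytokine. With only the 6 IL-21 and media control arrays, which leave fewer arrays to estimate the spread, 838 rose and 858 fell. Leaving out 1 replicate number in all groups, or 1 IL-21 or media control array, gave 708 to 1873 rises and 723 to 1954 falls. Leaving out 1 replicate number or 1 IL-21 array gave 136 to 495 genes higher and 31 to 196 lower than with each other cytokine, and single arrays of the other cytokines were not left out. Over the same fits Bcl2 ran from -0.15 to 0.42, Stat2 from -0.28 to 0.0077 and Stat5b from -0.022 to 0.13. With the mean of all probe sets Bcl2 was at -0.019 and Stat2 at 0.050. A common median in place of quantile normalization, a filter at background, the mean of all probe sets, a variance trend with robust estimation, and the 15 arrays on 1 scale kept all counts within 1.5 times. Of 136 named genes that passed, 87 passed in the same direction in every fit in which they were measured. Without the replicate 1 arrays of all groups, those lost include Iigp1, Cxcr6, Il18, Fasl, S1pr1, Bach2, Lyz2 and Pmaip1 (adjusted p = 0.058 to 0.10 in limma). Bcl6, Cd79a, Eomes and Il7r did not pass there either (adjusted p = 0.067 to 0.10 in limma). Other causes of these differences were not tested. No array gives a read depth, and levels under background limit 516 of the rises and 407 of the falls.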

Other observations

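Proximal T cell receptor signalling genes leaned downward with IL-21, with 16 of 35 lower and 4 higher and a median change of -0.30. Sla, an adaptor that limits receptor signalling, stood at 10.92, 11.18 and 11.48 with IL-21, against 12.21, 12.57 and 12.56 in media control. Rasgrp1, the activator of RAS in T cells, stood at 9.29, 9.83 and 9.11 with IL-21, against 10.44, 10.79 and 10.18 in media control. Neither gene had overlapping groups, and Cd5, an inhibitory co-receptor, fell as well (-0.97 ± 0.14). Malt1, a protease of the NF-kappaB branch, went the other way, at 10.36, 10.65 and 10.30 with IL-21, against 9.06, 9.61 and 9.30 in media control. With the deposited values used as they are 0 of the 16 falls passed, under which the median of all genes is 0.43. Early response genes were split, with 8 of 21 higher and 7 lower. Ier3, a stress-response gene, stood at 10.12, 11.67 and 10.16 with IL-21, against 7.86, 8.51 and 6.81 in media control, and Egr3 at 7.34, 7.08 and 5.96 with IL-21, against 9.37, 9.18 and 8.98 in media control. Both had groups that did not overlap, and for Egr3 this holds for the probe set used. Its other probe set differed by -0.15 and did not pass.

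Of 11 type 17 genes 5 rose and none fell. Il17a, Ccr6 and Ccl20 did not pass, each with group means under background in both groups. Il1r1, the signalling receptor of IL-1, stood at 8.70, 8.23 and 9.42 with IL-21, against 5.88, 6.23 and 6.32 in media control. Il1r1 rose by 2.64 ± 0.17 and averaged 6.01 to 6.15 with the 4 other cytokines. Outside this list, Il1r2, the decoy receptor of IL-1, rose by 1.58 ± 0.15, and Il12rb2, the IL-12 receptor chain, by 1.71 ± 0.20. Ahr, the aryl hydrocarbon receptor, stood at 6.56, 6.44 and 6.42 with IL-21, against 5.04, 4.80 and 3.90 in media control, all under background. Another probe set of Ahr did not pass (0.24, adjusted p = 0.25 in limma). Of 20 genes of suppressive T cells 9 rose, Il10, Havcr2, Prdm1 and Entpd1 among them. On the same list 6 fell, Itgae, Ikzf2 and Ebi3 among them, and the median change was -0.02. Foxp3, under background in both groups, and Ctla4 did not pass. Of 29 integrins and adhesion genes 4 rose and 7 fell, among them the alpha 4 integrin chain Itga4, at 8.96, 9.44 and 8.98 with IL-21, against 10.28, 10.39 and 10.64 in media control. Of 20 S100, annexin and galectin genes 5 rose and 1 fell, led by Anxa2, a membrane-binding annexin, at 12.90, 13.12 and 12.97 with IL-21, against 11.60, 11.58 and 11.65 in media control. Both genes had non-overlapping groups.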
